A study of Mus musculus with 30 samples.

Results

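Solute carriers are membrane proteins that move sugars, amino acids, ions, nucleosides, vitamins and other small solutes across the plasma membrane and the membranes of lysosomes, mitochondria and the Golgi. In macrophages they supply glucose for glycolysis, cystine for glutathione, arginine for nitric oxide synthesis, and iron, zinc and copper, which are also fought over during infection. Lipopolysaccharide (LPS), a bacterial cell wall component, activates macrophages through Toll-like receptor signalling, and β2 adrenergic agonists raise cAMP in the same cells.

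The genes described here were those whose symbol begins with Slc and a digit and whose most abundant transcript reached 1 RPKM (reads per kilobase of transcript, scaled to the mapped reads of the library) in at least 3 of the 30 libraries. Of 382 such symbols, carried by 748 transcript lines, 176 met the rule and 206 did not, while 10355 of all 24761 symbols met the same level rule. Members were thus chosen by their measured levels over all 30 libraries, not by differences between groups, and their presence above 1 RPKM is no finding. Of the 176 members, 140 reached 1 RPKM in all 30 libraries, and none did so in a single group or at a single time only. Slc9a5, a sodium-proton exchanger, was the only member at 1 RPKM under DMSO alone, and with 4 such libraries (highest value 1.34 RPKM) it lay just inside the rule. Just outside were Slc5a3, an inositol transporter, with 2 libraries (highest 1.62 RPKM) and Slc15a2, Slc26a10, Slc29a2, Slc45a3 and Slc52a3 with 1 library each. The shared prefix does not make every member a carrier: Slc4a1ap, Slc7a6os and Slc9a3r1 encode proteins named after a carrier and were kept apart.

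The libraries came from bone marrow-derived macrophages of wild-type C57Bl/6 mice, grown with M-CSF. Cultures received DMSO vehicle or 1 µM metaproterenol hemisulfate (MPH), a β2 adrenergic receptor agonist, for 2 h, and were then collected without LPS (0 h) or after 1 or 2 h of LPS, labelled as 100 ng/µL. There were 7 cultures with DMSO, named D3 to D6, UKD, r1 and r2, and 3 with MPH (M2, M3 and M4), each with 1 library per time. All groups therefore shared the strain, the M-CSF differentiation and the 2 h pretreatment. There was no library without LPS at 1 or 2 h. Changes called LPS responses here cannot be told apart from changes with time alone, or under MPH with time since the agonist was added. Nothing in the labels says whether cultures came from separate mice, so the p-values refer to the spread between these cultures. The main fits also counted libraries of 1 culture at different times as independent. For MPH against DMSO they thus took 7 cultures as 21 libraries, which overstates the number of independent values behind those p-values. For LPS against 0 h they left differences between cultures of 1 name series in the spread. In each such comparison more members passed with the culture as a block, so a member that did not pass is not thereby shown as unchanged.

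Depth estimated from the value steps ran from 5.38 to 92.1 M reads (M, mega), with a median of 41.3 M, and D6, UKD and D4 at 1 h were the 3 shallowest libraries. Of 8 macrophage markers sought, 7 were found and all 7 reached 1 RPKM in at least 3 libraries, with a summed level at 0 h of 4006 to 7156 RPKM under DMSO. Neutrophil markers summed to 5.82 to 49.1 RPKM under DMSO at 0 h and to 41.1 to 54.9 RPKM under MPH, and at 2 h to 7.16 to 92.7 and 62.1 to 90.5 RPKM. None of the 7 neutrophil markers tested passed for MPH against DMSO at any time, and their part in the results was not tested. The 5 B cell markers summed to at most 1.499 RPKM in any library; Cd79b alone reached 1 RPKM in at least 3 libraries, while Ms4a1 and Ebf1 stayed under 0.1 RPKM everywhere. In these bulk samples fewer cells of a type and less RNA per cell cannot be told apart. As a check of the treatment, 12 known cAMP target genes, Crem and Nr4a1 among them, stood on average 2.99 to 3.45 log2 units above the D3 to D6 mean in the 3 MPH libraries at 0 h. At 1 h the same mean was 2.28 in M2 and 2.04 in M3 but -0.12 in the library labelled M4, within the range of the DMSO libraries (-0.32 to 0.44). At 2 h it was 1.19 to 1.84 in the 3 MPH libraries, lower than at 0 h. Results that rest on the library labelled M4 at 1 h are therefore given with and without it.

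Promoter sequences are shown for the member that passed for MPH at 0 h and for the 2 largest LPS rises under DMSO at 2 h, Slc7a11 and Slc2a6. The RefSeq table on GRCm38.p6 held 182 promoters for 133 of the 176 members, each with 250 bases before and 50 after the start, and none for Slc7a2 and Slc25a37. Capitals mark matches, on either strand, to the 6 motifs searched.
Slc25a33, chr4:149774218-149774517, minus strand: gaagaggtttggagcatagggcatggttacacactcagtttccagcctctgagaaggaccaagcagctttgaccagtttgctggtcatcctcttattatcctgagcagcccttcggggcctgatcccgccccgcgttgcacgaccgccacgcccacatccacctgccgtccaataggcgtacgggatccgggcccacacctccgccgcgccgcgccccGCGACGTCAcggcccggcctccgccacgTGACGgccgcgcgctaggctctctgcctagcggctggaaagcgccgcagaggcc
Slc7a11, chr3:50443564-50443863, minus strand: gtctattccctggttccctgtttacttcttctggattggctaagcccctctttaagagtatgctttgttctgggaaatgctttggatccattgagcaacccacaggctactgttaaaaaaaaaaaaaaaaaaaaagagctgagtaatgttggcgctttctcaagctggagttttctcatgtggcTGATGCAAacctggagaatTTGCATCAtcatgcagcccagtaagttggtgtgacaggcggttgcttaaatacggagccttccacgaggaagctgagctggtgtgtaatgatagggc
Slc2a6, chr2:27027949-27028248, minus strand: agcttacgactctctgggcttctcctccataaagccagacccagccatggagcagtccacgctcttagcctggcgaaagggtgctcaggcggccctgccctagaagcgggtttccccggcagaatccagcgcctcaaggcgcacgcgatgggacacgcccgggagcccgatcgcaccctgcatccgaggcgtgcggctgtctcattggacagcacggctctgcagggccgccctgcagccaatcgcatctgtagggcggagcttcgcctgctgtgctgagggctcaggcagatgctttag

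The Slc25a33 window held 2 copies of the short form of the cAMP response element (TGACG), beginning 28 and 4 bases before the start, and 1 antioxidant response element (TGACNNNGC) that overlaps the first of them. This short form occurred in 20.8% of all 32851 promoters in the table and in 29.1% of the members' promoters. Antioxidant response elements occurred in 12.4% of all promoters and 21.4% of the members'. The Slc7a11 window held 2 amino acid response elements (TGATGNAA) in opposite orientation, 66 and 47 bases before the start, a motif found in 3.97% of all promoters and 3.85% of the members'. The Slc2a6 window held none of these, nor the full cAMP response element (TGACGTCA; 1.79% of all promoters), the AP-1 site (TGANTCA; 7.81%) or the NF-kB site (8.46%). A match describes letters only.

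At rest, in DMSO at 0 h, the members ranged widely in level per transcript length: 9 stood above 50 RPKM on average over the 7 cultures, 54 between 10 and 50, and 113 below 10, with a median of 5.93 RPKM. The mitochondrial carriers led with Slc25a3, which imports phosphate (144 ± 9.93 RPKM, SD, n = 7), and the ADP/ATP exchangers Slc25a5 (73.1 ± 11.2) and Slc25a4 (68.2 ± 13.5). Among amino acid carriers the taurine transporter Slc6a6 reached 111 ± 18.7 RPKM, the heavy chain Slc3a2, which carries several amino acid exchangers to the surface, 104 ± 34 RPKM, and the neutral amino acid exchanger Slc7a8 61.4 ± 9.9 RPKM. The phagosomal metal transporter Slc11a1 (NRAMP1) stood at 75.5 ± 30.6 RPKM and led the metal carriers, and the heme carrier Slc48a1 at 70.0 ± 15.7 RPKM led the vitamin, choline and heme class. Sugar carriers were led by the sugar phosphate exchanger Slc37a2 (52.9 ± 15.9 RPKM), ahead of the glucose transporter Slc2a1 (22.02 ± 11.6) and the hexose transporter Slc2a6 (15.9 ± 4.71). Of 9 nucleoside carrier symbols 4 were members, with the equilibrative transporter Slc29a1 at 21.8 ± 3.35 RPKM, the nucleobase transporter Slc43a3 at 9.78 ± 2.8, the lysosomal Slc29a3 at 9.69 ± 3.88, and the concentrative Slc28a2 lowest.

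Cultures differed at rest. The ratio of the highest to the lowest of the 7 DMSO cultures had a median of 1.81 over the members, stayed under 2 in 108 of them and passed 4 in 13. The iron exporter Slc40a1 (ferroportin) ran from 4.01 RPKM in D3 to 52.6 RPKM in r1, a ratio of 13.1. The betaine and GABA transporter Slc6a12 ran from 0.27 to 4.03 RPKM, a ratio of 14.9, the widest among the members. Both Slc2a1 (10.9 to 41.9 RPKM) and the lactate exporter Slc16a3 (8.46 to 51.7 RPKM) were highest in UKD and lowest in r1.

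LPS under DMSO was tested over the 7 cultures on the log2(RPKM + 0.5) scale, which understates the change of genes with low values. At 2 h a small set of members rose strongly while most differences were small and negative. Of the 176 members, 110 passed the test (adjusted p below 0.05), 22 higher and 88 lower, or 62.5% against 54.1% of all 10212 genes tested, a share somewhat above the background on the deposited scale. The share higher was 12.5% for the members and 10.5% for all genes, and the share lower 50% and 43.6%. The median log2 difference was -0.30 over the members and -0.25 over all genes. With the culture as a block 32 members were higher and 115 lower, against 1513 higher and 6335 lower of all genes. Rescaling the libraries by the median of ratios brought the median of all genes near 0 and moved the split to 36 higher and 34 lower. All genes then gave 1866 higher and 1932 lower of 10212, a passing share closer to that of the members than before rescaling. Rises made up 51.4% of the rescaled calls among members and 49.1% among all genes, a similar split. All 22 rises passed under both scalings, 34 of the 88 falls did so, and 5 falls took the opposite sign after rescaling. Falls of members at 2 h under DMSO are therefore named below only where they passed under both scalings, except where stated. At least 2-fold differences that passed numbered 12 up and 5 down.

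**Figure D1:**
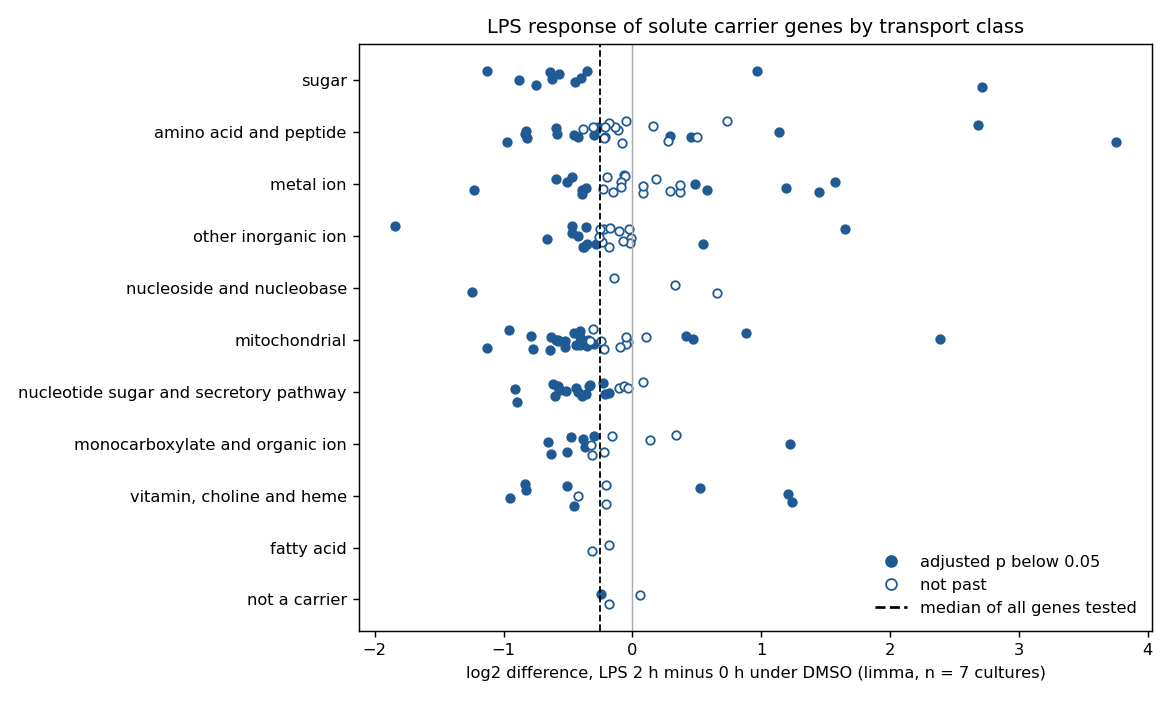
Log2 difference of each member between 2 h of LPS and 0 h under DMSO, by transport class, with the median of all genes tested as a dashed line. Filled points passed the test at an adjusted p below 0.05; the sugar class has 2 rises (Slc2a1 and Slc2a6) and 9 falls, and the nucleotide sugar class has no rise.

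The amino acid carrier Slc7a11, which exchanges glutamate for cystine together with Slc3a2 and so feeds glutathione synthesis, had the largest rise of all members. Its DMSO libraries ran from 0.46 to 4.41 RPKM at 0 h (median 0.85), from 2.09 to 16.4 at 1 h (median 5.08) and from 12.7 to 41.3 at 2 h (median 19.9). The 0 h and 2 h groups did not overlap, D3 was the highest culture at 0 h, and all 7 cultures rose. The log2 difference was 2.05 (SE 0.34, adjusted p = 0.000193) at 1 h and 3.75 (SE 0.34, adjusted p = 3.5e-08) at 2 h. Its partner Slc3a2 did not pass at 2 h (log2 difference 0.28, SE 0.15, adjusted p = 0.126), although it was higher in 7 of 7 cultures and passed after rescaling and with the culture as a block (adjusted p = 0.000232).

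Slc7a2, the cationic amino acid transporter that brings arginine into activated macrophages, was low at rest and rose late. It ran from 0.57 to 1.94 RPKM at 0 h (median 1.24), from 1.37 to 3.45 at 1 h (median 1.92) and from 6.76 to 18.1 at 2 h (median 8.17). The 2 h values lay above every 0 h value, and the log2 difference was 0.67 (SE 0.21, adjusted p = 0.0313) at 1 h and 2.68 (SE 0.21, adjusted p = 5.9e-09) at 2 h. The 1 h call was lost when D6, UKD or r1 was left out. In the list of arginine, polyamine and amino acid response genes, 9 of 10 were tested at 2 h, and 3 rose, namely the arginine users Nos2 (log2 difference 4.22) and Arg2 (2.21) and the polyamine enzyme Odc1 (0.70). Another 3 of the list, the stress response genes Ddit3, Trib3 and Sesn2, were lower. Slc15a3, a lysosomal peptide and histidine transporter, rose from a median of 51.6 to 111 RPKM (log2 difference 1.14, SE 0.17, adjusted p = 2.5e-05), with no overlap and all 7 cultures higher. The other amino acid rises were Slc38a1 (log2 difference 0.45), a glutamine transporter, and Slc7a1 (0.29, higher in 6 of 7 cultures), a further arginine transporter. Of 29 amino acid and peptide carriers 5 rose and 11 were lower, and 5 of these falls passed under both scalings. They were the lysosomal proton-coupled Slc36a1 (log2 difference -0.97), the neutral amino acid carrier Slc43a2 (-0.83), the lysosomal Slc66a1 (-0.83), Slc66a2 (-0.82) and the lysosomal arginine sensor Slc38a9 (-0.59).

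**Figure D2:**
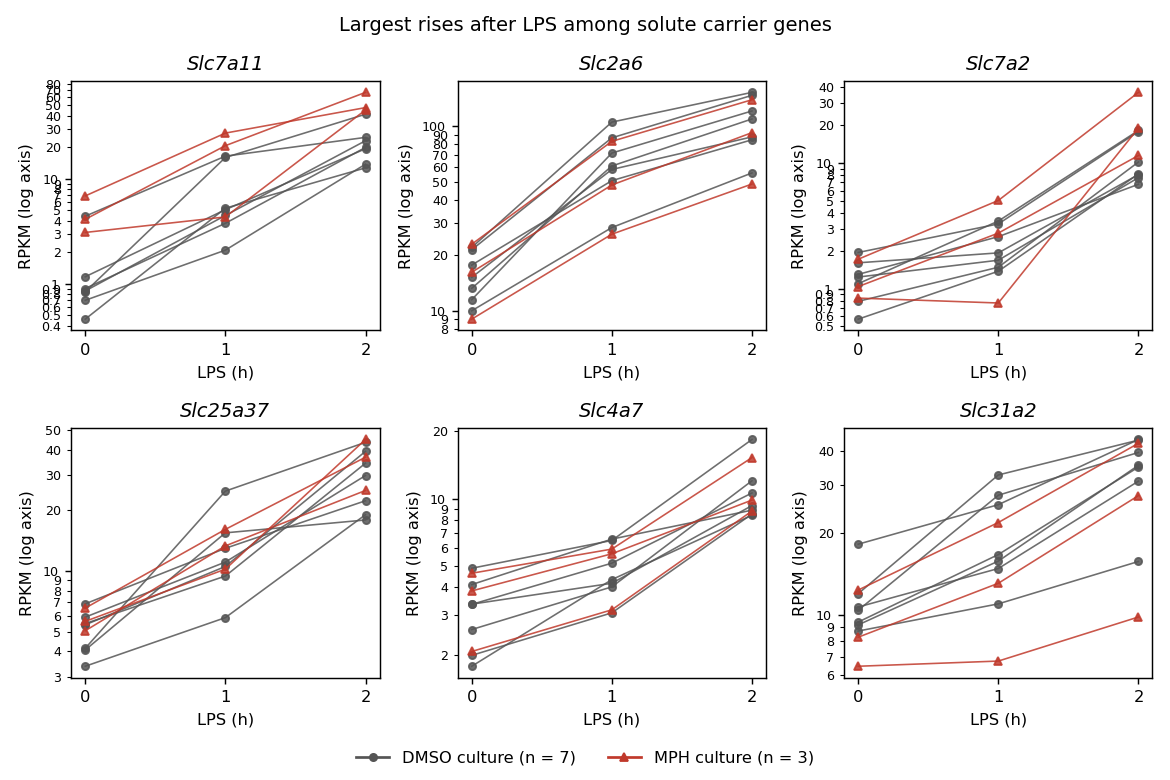
RPKM on a log axis against hours of LPS for the 6 members with the largest rises at 2 h under DMSO; each line is 1 culture, grey for DMSO (n = 7) and red for MPH (n = 3). Slc7a11 climbs from a DMSO median of 0.85 RPKM to 19.9 RPKM and Slc2a6 from 15.2 to 109 RPKM, and MPH lines follow the same course.

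Among sugar carriers the hexose transporter Slc2a6 (GLUT6) rose early. Its DMSO libraries ran from 10.0 to 22.04 RPKM at 0 h (median 15.2), from 28.2 to 105 at 1 h (median 60.9) and from 55.8 to 153 at 2 h (median 109). Neither later group overlapped with 0 h, D3 was lowest and D6 highest at all 3 times, and the log2 difference was 1.97 (SE 0.27, adjusted p = 2.3e-05) at 1 h and 2.71 (SE 0.27, adjusted p = 1.3e-07) at 2 h. By 2 h Slc2a6 made up 53.5% of the summed mean RPKM of the 11 sugar carriers. Slc2a1 (GLUT1), the main glucose importer, went from a median of 20.4 to 34.5 RPKM, with overlap between the groups but a rise in 7 of 7 cultures (log2 difference 0.97, SE 0.20, adjusted p = 0.000461). All 9 other sugar carriers were lower at 2 h, 6 of them under both scalings. These 6 were Slc45a4 (log2 difference -1.13), the glucose transporter Slc2a3 (GLUT3, -0.57) and the 4 members of the sugar phosphate exchanger family Slc37a1 (-0.62), Slc37a2 (-0.88), Slc37a3 (-0.64) and Slc37a4 (-0.75), the last of which brings glucose 6-phosphate into the endoplasmic reticulum. Of 14 tested glycolysis and lactate enzymes, 2 rose at 2 h, Hk2 (log2 difference 0.54) and Pfkp (0.25), and none was lower.

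Metal carriers moved in both directions. Slc25a37 (mitoferrin 1), counted with the mitochondrial class, brings iron into mitochondria. It ran from 3.38 to 6.89 RPKM at 0 h (median 5.42) and from 17.9 to 43.5 at 2 h (median 29.8). The groups did not overlap, and the log2 difference was 2.39 (SE 0.21, adjusted p = 3.0e-08). Its paralog Slc25a28 (mitoferrin 2) fell by 0.63 on the log2 scale (SE 0.13, adjusted p = 0.000566). The copper carrier Slc31a2 went from a median of 10.4 to 35.5 RPKM and rose in 7 of 7 cultures (log2 difference 1.58), although D3 at 2 h (15.7 RPKM) lay below D4 at 0 h (18.2 RPKM). The zinc and iron importer Slc39a14 rose from a median of 4.35 to 14.0 RPKM without overlap (log2 difference 1.45, SE 0.14, adjusted p = 1.3e-07), with no passing change at 1 h (0.23). The divalent metal importer Slc11a2 (DMT1) rose by a log2 difference of 1.19 and the zinc carriers Slc30a6 and Slc39a1 by 0.58 and 0.48. The iron exporter Slc40a1 was lower in all 7 cultures, from a median of 6.36 to 2.85 RPKM (log2 difference -1.23, SE 0.30, adjusted p = 0.00207), with r1 the highest at each time. Slc11a1 did not pass (log2 difference -0.15, and 0.11 after rescaling). Of 25 metal carriers 5 rose and 7 were lower, but after rescaling 11 were higher and Slc40a1 alone was lower. In the list of 10 zinc and iron handling genes, 9 were tested, with Mt2 higher (log2 difference 1.26) and Hmox1 (-0.45) and Steap3 lower.

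For the other inorganic ions, the sodium bicarbonate cotransporter Slc4a7 rose from a median of 3.36 to 9.30 RPKM without overlap (log2 difference 1.65, SE 0.21, adjusted p = 3.3e-06), and the potassium chloride cotransporter Slc12a4 rose by 0.55. The sulfate and chloride carrier Slc26a11 had the largest fall of all members. It ran from 4.58 to 16.5 RPKM at 0 h (median 7.93), from 2.72 to 7.64 at 1 h and from 0.83 to 2.64 at 2 h (median 1.93). The 0 h and 2 h groups did not overlap, and the log2 difference was -1.84 (SE 0.20, adjusted p = 3.1e-07). Of these 23 members 2 rose and 10 were lower, with Slc26a11 and Slc12a9 the 2 falls that passed under both scalings. The phosphate importer Slc20a1 and the glutamine carrier Slc38a2 passed at 1 h only. Slc20a1 stood at a median of 25.6 RPKM at 0 h, 37.6 at 1 h and 28.3 at 2 h, higher at 1 h in 7 of 7 cultures (log2 difference 0.53, SE 0.14, adjusted p = 0.00879). Slc38a2 stood at 29.3, 39.8 and 30.6 RPKM (log2 difference at 1 h 0.55, SE 0.13, adjusted p = 0.00612).

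Of the 4 nucleoside and nucleobase carriers only Slc29a3 passed at 2 h. This lysosomal nucleoside exporter ran from 6.69 to 17.6 RPKM at 0 h (median 8.22) and from 1.99 to 9.63 at 2 h (median 2.89). It was lower in 7 of 7 cultures, with D3 the highest at every time, and the log2 difference was -1.24 (SE 0.26, adjusted p = 0.000552). Slc29a1 did not pass (log2 difference -0.15, adjusted p = 0.177, and 0.11 after rescaling). Slc28a2 (0.66, adjusted p = 0.111) and Slc43a3 (0.33, adjusted p = 0.129) did not pass on the deposited scale but were higher in 7 of 7 cultures and passed after rescaling. With the culture as a block all 4 passed, 2 higher and 2 lower, against 1513 higher and 6335 lower of all 10212 genes. In the list of adenosine and nucleotide enzymes 8 of 10 were tested, and the uridine phosphorylase Upp1 alone rose (log2 difference 1.04).

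Of 33 mitochondrial carriers 4 rose at 2 h and 20 were lower on the deposited scale, of which 9 passed under both scalings. The share that passed was 72.7%, against 54.1% of all genes, of which 43.6% were lower. After rescaling 5 of the class were higher and 9 lower. Besides Slc25a37 the rises were Slc25a25, an ATP-Mg/phosphate carrier, Slc25a33, a pyrimidine nucleotide carrier (log2 difference 0.41), and the peroxisomal Slc25a17 (0.47). Slc25a25 peaked at 1 h: its DMSO libraries ran from 1.97 to 4.79 RPKM at 0 h (median 3.20), from 9.27 to 16.7 at 1 h (median 10.9) and from 4.59 to 7.90 at 2 h (median 5.98). The 1 h group lay above both others without overlap, and the log2 difference from 0 h was 1.80 (SE 0.16, adjusted p = 5.25e-08) at 1 h and 0.88 (SE 0.16, adjusted p = 0.00011) at 2 h. The largest mitochondrial falls were Slc25a45 (log2 difference -1.13, no overlap) and the glycine carrier Slc25a38 (-0.96). Of 21 nucleotide sugar and secretory pathway carriers none rose and 17 were lower, 5 under both scalings, led by the Golgi GDP-fucose carrier Slc35c1 (log2 difference -0.91) and Slc35f6 (-0.90). In this class 3 of the falls, all small, changed sign on rescaling. Vitamin, choline and heme carriers gave 3 rises, the choline transporter Slc44a1 (log2 difference 1.24), Slc49a4 (1.21) and the ascorbate transporter Slc23a2 (0.52), and 5 falls, with the thiamine transporter Slc19a2 (-0.95) the largest. In the monocarboxylate and organic ion class the aromatic amino acid transporter Slc16a10 was the only rise (log2 difference 1.22, 7 of 7 cultures). Neither fatty acid carrier, Slc27a1 or Slc27a4, passed without a block, while with the culture as a block both passed as lower.

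At 1 h the response under DMSO was smaller: 31 members passed, 11 higher and 20 lower, or 17.6% against 20.3% of all genes (5.24% higher, 15% lower), a share no larger than the background. The rises that passed at 1 h and 2 h alike numbered 9, among them Slc7a11, Slc2a6 and Slc25a37. The falls at both times numbered 19, and the carnitine transporter Slc22a5 was the 1 fall at 1 h only (log2 difference -0.28, not past after rescaling). With the culture as a block 96 members passed at 1 h (17 higher, 79 lower), against 889 higher and 4570 lower of all 10212 genes. After rescaling 18 members did (16 higher, 2 lower), against 693 higher and 526 lower of all genes. The count fell to 11 without r1, 18 without UKD and 20 without D6, and to 11 without the 3 shallow 1 h libraries.

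Under MPH the LPS response was tested over the 3 MPH cultures. At 2 h 40 members passed, 10 higher and 30 lower, or 22.7% against 20.7% of all 10239 genes tested (5.97% higher, 14.7% lower), close to the background in this fit without a block. With the culture as a block 126 of the 176 members passed (24 higher, 102 lower). All 10239 genes then gave 1195 higher and 4382 lower, a smaller share than that of the members. Rescaling gave 16 higher and 16 lower, with all 10 rises and 16 of the 30 falls among them, against 820 higher and 592 lower of all genes. The count was 19 without M3 and 22 without M4. Slc7a2 stood at 0.84, 1.04 and 1.71 RPKM in M4, M2 and M3 at 0 h and at 18.9, 11.4 and 36.4 RPKM at 2 h (log2 difference 3.63, SE 0.49, adjusted p = 4.9e-05). Slc7a11 stood at 3.08, 6.87 and 4.12 RPKM in M4, M2 and M3 at 0 h and at 45.3, 47.7 and 66.6 RPKM at 2 h (log2 difference 3.42, SE 0.65, adjusted p = 0.00121). Neither gene's groups overlapped, and all 3 cultures rose. The other rises were Slc25a37 (log2 difference 2.50), Slc2a6 (2.47), Slc4a7 (1.57), Slc39a14 (1.49), Slc44a1 (1.20), Slc49a4 (1.01), Slc30a6 (0.85) and Slc23a2. Of these, the call was lost without M3 for Slc39a14, without M3 or M4 for Slc4a7, and without D4, D5, D6, M3 or M4 for Slc23a2.

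The falls under MPH at 2 h were led by Slc26a11 (log2 difference -2.01) and the zinc exporter Slc30a1. Slc30a1 stood at 4.21, 6.53 and 3.71 RPKM in M2, M3 and M4 at 0 h, at 2.30, 2.10 and 2.11 RPKM at 1 h and at 1.33, 1.24 and 1.65 RPKM at 2 h. The 0 h values lay above all later ones, and the log2 difference was -0.96 (SE 0.23, adjusted p = 0.023) at 1 h and -1.45 (SE 0.23, adjusted p = 0.000229) at 2 h, against -0.36 at 2 h under DMSO. Only the 2 h fall under MPH passed after rescaling as well. The test of the difference between the 2 h responses did not pass for Slc30a1 (log2 difference MPH minus DMSO -0.93, SE 0.30, adjusted p = 0.747). At 1 h under MPH 2 members passed, Slc25a25 higher (log2 difference 1.87) and Slc30a1 lower, or 1.14% against 3.08% of all genes (1.89% higher, 1.18% lower). With the culture as a block 18 members passed (4 higher, 14 lower), against 477 higher and 759 lower of all 10239 genes. Without the library labelled M4 at 1 h, the members that passed were Slc25a25 (log2 difference 1.52, adjusted p = 0.00178) and Slc25a37, both higher. Slc30a1 then did not pass (-0.94, adjusted p = 0.0617), and 22 members passed with the culture as a block. The 1 h count was 1 when D5, M2, M3 or M4 was left out.

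Across the 176 members the LPS responses under MPH and DMSO, which share no library, were correlated at 2 h (Pearson's r 0.93, Spearman's rho 0.81) and at 1 h (0.88 and 0.73, or 0.81 and 0.64 without the library labelled M4), as a description across genes, which are not independent. Of the 40 members that passed at 2 h under MPH, 37 also passed under DMSO, and 36 of those had the same direction. Those that passed under MPH only were Slc22a5 and the amino acid exchangers Slc7a5 and Slc7a6, all 3 lower and none past after rescaling, and the 1 with opposite directions was Slc25a33. No member passed the test of the difference between responses at 1 h or 2 h, against 0% and 0.107% of all genes, and the counts at an unadjusted p below 0.05 in limma were 0 and 3, against 0.811% and 3.11% of all genes. Without the library labelled M4 the 1 h counts were 0 as well. With the culture as a block, 2 members passed at 2 h, Slc25a33 (log2 difference -1.33, adjusted p = 0.0332) and Slc35e4 (-0.82, adjusted p = 0.0203). Of all 10239 genes 78 were then higher and 68 lower. For Slc25a33 the difference rests on its higher MPH level at 0 h, described below.

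**Figure D3:**
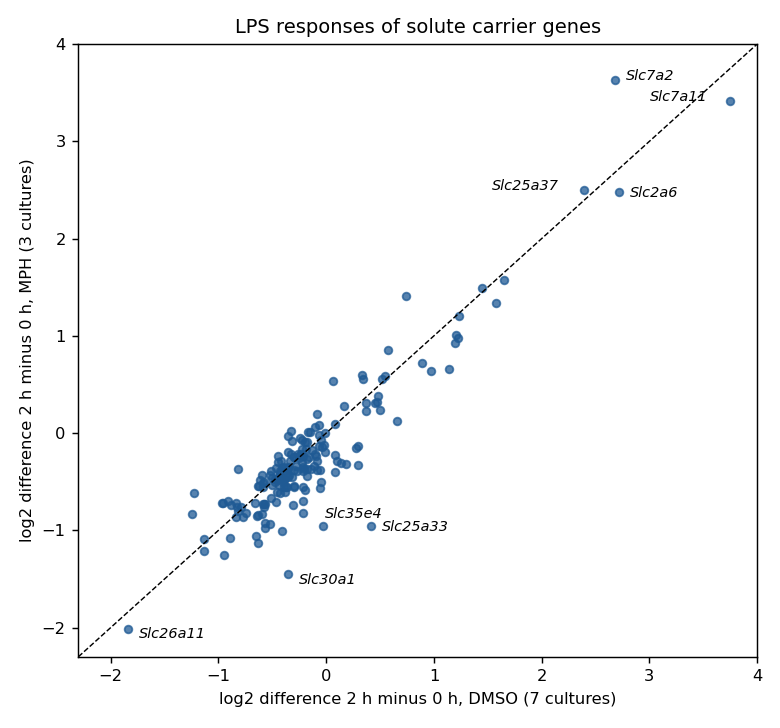
Log2 difference between 2 h of LPS and 0 h for each of the 176 members under DMSO (horizontal axis, 7 cultures) and MPH (vertical axis, 3 cultures); the dashed line marks equal responses. Slc25a33 lies at 0.41 under DMSO and -0.95 under MPH, below the line with Slc30a1 and Slc35e4.

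MPH was compared with DMSO at each time over M2 to M4 and D3 to D6. At 0 h 1 of the members passed, against 0.869% of all genes, at 1 h none (0% of all genes) and at 2 h none (0.869% of all genes). At an unadjusted p below 0.05 limma gave 16, 8 and 15 members, against 6.69%, 3.19% and 9.08% of all genes. Groups did not overlap for 14 members at 0 h, 1 at 1 h and 22 at 2 h, against 7.54%, 1.48% and 9.5% of all genes. Without the library labelled M4 the 1 h numbers were 1 member past the test (1.34% of all genes), 20 at an unadjusted p below 0.05 (9.61%) and 38 without overlap (14.5%). These fits pair no MPH culture with a DMSO culture, although D3 with M2, D4 with M3 and D5 with M4 deviated together from their group means (correlations over genes of 0.74 to 0.90), so members that did not pass here were not tested with such a pairing.

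The member that passed at 0 h was Slc25a33, which imports pyrimidine nucleotides into mitochondria and whose promoter is printed above. Before LPS it stood at 7.23, 10.1 and 4.90 RPKM in M2, M3 and M4, while the 7 DMSO cultures ran from 1.06 (r2) to 2.83 RPKM (D6). Every MPH culture lay above every DMSO culture, and the log2 difference was 1.39 (SE 0.30, limma, adjusted p = 0.0321). The call did not pass when D3, D4, D5, D6, M2 or M3 was left out (adjusted p = 0.0522 to 0.211) and did when M4 was (adjusted p = 0.00465), while the log2 difference stayed between 1.15 and 1.64. With all 7 DMSO cultures it was 1.43 (adjusted p = 0.000678). At 1 h the values were 8.31, 7.07 and 3 RPKM in M2, M3 and M4 against 1.95 to 4.95 under DMSO, and at 2 h 4.20, 2.79 and 3.43 against 1.61 to 4.82, so the groups overlapped after LPS (log2 differences 0.72 and 0.055, adjusted p = 1.00 at both times). The overlap at 1 h came through the library labelled M4 alone, while M2 and M3 lay above every DMSO value. Leaving out 1 culture at a time gave 1 h log2 differences of 0.47 to 1.13. Without the 1 h library labelled M4, Slc25a33 still did not pass at 1 h. From 0 h to 2 h Slc25a33 fell in all 3 MPH cultures (log2 difference -0.95, adjusted p = 0.0423) and rose in all 7 DMSO cultures (0.41, adjusted p = 0.0149). With no LPS-free library at 2 h, the fall under MPH cannot be told apart from a change with time since the agonist was added. The fall under MPH did not pass after rescaling or when D3, D4, D5, M2 or M3 was left out (log2 differences of -1.20 to -0.59 over the cultures left out). The difference between the responses, tested over D3 to D6 and M2 to M4, is the MPH against DMSO difference at 2 h (0.055) minus that at 0 h (1.39). It thus draws on the same 0 h libraries as the 0 h call. Without the block it did not pass (log2 difference -1.33, SE 0.42, limma, adjusted p = 0.711). In the list of adenosine and nucleotide enzymes, 9 of 10 were tested for MPH, and the uridine-cytidine kinase Uck2 was higher at 0 h (log2 difference 1.51, adjusted p = 0.0132) and at 2 h (1.49), with Upp1 higher at 2 h (1.85).

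**Figure D4:**
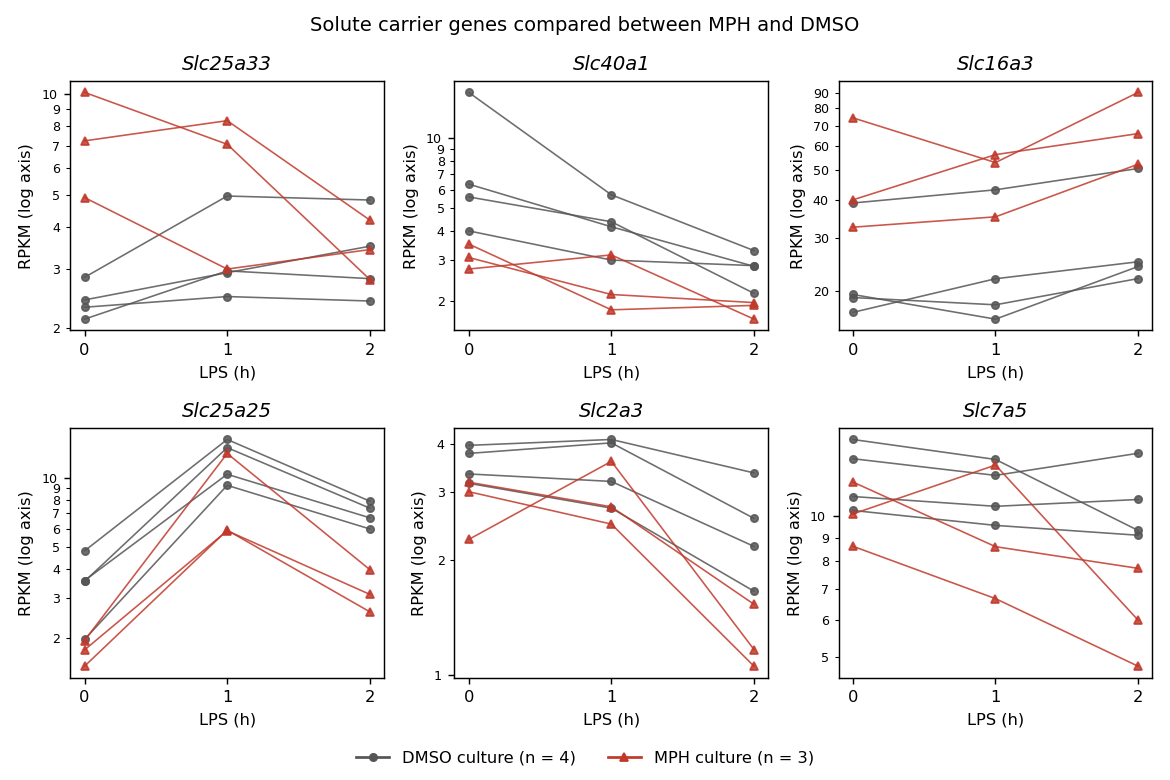
RPKM on a log axis against hours of LPS for 6 members described in the comparison of MPH with DMSO, in D3 to D6 (grey circles, n = 4) and M2 to M4 (red triangles, n = 3); each line is 1 culture. Slc25a33 is fully separated at 0 h only (4.90 to 10.1 RPKM under MPH), with the library labelled M4 alone overlapping at 1 h, and Slc25a25, Slc2a3, Slc7a5 and Slc16a3 are separated at 2 h.

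The other members with small p-values did not pass. Slc40a1 stood at 2.75 to 3.52 RPKM under MPH at 0 h, below all 7 DMSO cultures (4.01 to 52.6 RPKM), for a log2 difference of -1.04 (SE 0.30, adjusted p = 0.167). Slc25a28 stood at 7.09, 13.4 and 15.3 RPKM in M2, M3 and M4 against 4.33 to 10.0 under DMSO, with overlap (log2 difference 0.92, SE 0.27, adjusted p = 0.168), and passed with all 7 DMSO cultures (adjusted p = 0.0197). The lactate exporter Slc16a3 had the largest positive difference at 2 h, 52.4, 66.1 and 90.3 RPKM in M2, M3 and M4 against 12.7 to 60.9 under DMSO. UKD was the DMSO culture that overlapped, and against D3 to D6 the log2 difference was 1.23 (SE 0.38, adjusted p = 0.175). With all 7 DMSO cultures it was 1.27 and passed (adjusted p = 0.0159).

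At 2 h Slc25a25 stood at 2.60, 3.10 and 3.97 RPKM under MPH, below all 7 DMSO cultures (4.59 to 7.90 RPKM), and the log2 difference was -1.02 (SE 0.26, adjusted p = 0.0736). The glucose transporter Slc2a3 stood at 1.05 to 1.53 RPKM against 1.26 to 3.38 under DMSO, overlapping with UKD (log2 difference -0.72, adjusted p = 0.084). Slc7a5, the leucine exchanger that pairs with Slc3a2, stood at 4.77, 5.99 and 7.73 RPKM in M3, M4 and M2, below all 7 DMSO cultures (9.10 to 15.9 RPKM; log2 difference -0.76, adjusted p = 0.107). The lysosomal histidine and peptide transporter Slc15a4, named here after its values were seen, stood at 4.74 and 5.58 RPKM in M2 and M3 at 1 h but at 18.9 RPKM in the library labelled M4, above every DMSO library of that time. Without that library, Slc15a4 passed at 1 h (log2 difference -1.33, adjusted p = 0.0153) and at 2 h (-1.003, adjusted p = 0.0318), Slc25a25 (adjusted p = 0.0167) and Slc7a5 (adjusted p = 0.0416) passed at 2 h, and Slc25a33 passed at 0 h (adjusted p = 0.00422). With all 7 DMSO cultures and the name series as a covariate, Slc25a33 and Slc25a28 were among the members that passed at 0 h, both higher, and 7 members passed at 2 h, namely Slc16a3 higher and Slc25a25, Slc2a3, Slc7a5, Slc15a4, the mitochondrial aspartate and glutamate carrier Slc25a13 and the zinc importer Slc39a10 lower.

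The genes that rose most with LPS did not pass for MPH in the unpaired fit. Slc7a11 stood under MPH at 0 h at 3.08 to 6.87 RPKM against 0.46 to 4.41, with overlap through D3 (log2 difference 1.40, SE 0.61, adjusted p = 0.623), and its 2 h values of 45.3 to 66.6 RPKM lay above all 7 DMSO values (0.99, SE 0.61, adjusted p = 0.761). At 0 h all its MPH values lay above the DMSO cultures other than D3 (0.46 to 1.17 RPKM). D3 deviated together with M2, the highest MPH culture (correlation over genes 0.87 at 0 h), and such shared spread stays in the SE. Slc7a11 was not tested with such a pairing. Slc7a2 at 2 h was at 11.4 to 36.4 RPKM against 6.76 to 18.1 under DMSO (log2 difference 0.69, SE 0.46, adjusted p = 0.828). For Slc25a37 the 2 h log2 difference was 0.08 (SE 0.29). Slc2a6 stood at 48.6, 92.3 and 139 RPKM in M2, M3 and M4 at 2 h against 55.8 to 153 under DMSO, with a log2 difference of -0.24 (SE 0.51). Its direction depended on the fit: with the number shared by D3 and M3 and by D4 and M4 as a block it was 0.67 (adjusted p = 0.0124) at 2 h, and 0.74 (adjusted p = 0.00744) against -0.18 without the block at 0 h. Those same-numbered cultures deviated in opposite directions from their group means (correlations over genes of -0.64 to -0.36). The number is thus no sign of a pairing, and no rise of Slc2a6 under MPH is read from that block.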

How the data were processed

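RNA sequencing of 30 libraries was analysed. The authors deposited RPKM values, 1 line for each of 44401 RefSeq transcripts. FastQC, cutadapt, HISAT2, SAMtools and build mm9 are named, per the submitters' processing notes; details of the counting program, strand use and multiply mapped reads were not given in the sources used here. No value was 0, so low values are upper limits. Each symbol was represented by its transcript with the highest mean, on the log2(RPKM + 0.5) scale. The limma-trend test (limma 3.58.1 under R 4.3.3; Benjamini-Hochberg over all genes, threshold 0.05) took genes reaching 1 RPKM in 3 or more of the libraries fitted, and its script was tested on simulated data. D3 to D6 with M2 to M4 (21 libraries, 10239 genes) gave MPH against DMSO, LPS under MPH and the differences of responses. The 21 DMSO libraries (10212 genes), with name series (D, UKD, r) as covariate, gave LPS under DMSO. Libraries of 1 culture at different times deviated together from their group means (all 21 correlations in each fit over 0.1, at 0.59 to 0.91 and 0.62 to 0.91), so the culture names pair them. The members, classes, lists, motifs and named genes (up to 10 largest rises and falls that passed per comparison, the 5 smallest p where fewer than 5 passed, and the 3 most abundant per class) were chosen with earlier results of these data known, and members named beyond these to complete a class were chosen after their values were seen. The 6 h time of the design text was not analysed here.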

Additional observations from a re-analysis of the deposited data

Results flagged for a closer look

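In the 7 DMSO cultures, 8 of 135 member and time groups (45 named members) held 1 library whose gap to its nearest neighbour exceeded the critical value of Dixon's test, where chance flags about 1 in 20. The high ones were Slc7a11 in D3 at 0 h (4.41 RPKM against 0.46 to 1.17 in the others), Slc31a2 in D4 at 0 h (18.2 against 8.69 to 11.9), Slc35c1 in r1 at 0 h (9.92 against 6.86 to 7.99) and Slc40a1 in r1 at 1 h (29.4 against 2.68 to 7.87). The low ones were Slc16a10 in D3 at 2 h (16.4 RPKM against 25.9 to 34.6), Slc31a2 in D3 at 2 h (15.7 against 31.0 to 44.2), Slc35f6 in D6 at 1 h (16.9 against 20.8 to 23.7) and Slc50a1 in D4 at 0 h (6.94 against 10.1 to 13.3). With the culture as a block, the 2 h LPS response differed between MPH and DMSO for Slc25a33 (log2 difference -1.33) and Slc35e4 (-0.82). Such a difference is also the MPH against DMSO difference at 2 h minus that at 0 h. For Slc25a33 it rests on the higher MPH level at 0 h and is no separate result, as the groups overlapped at 2 h.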

How the results depend on the processing

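With the culture as a replicate block, LPS counts became 96 (DMSO, 1 h), 18 (MPH, 1 h) and 126 (MPH, 2 h), and 2 for the difference of 2 h responses; no other count moved by over 1.5 times. M3 and M4 share only a number with D3 and D4 (correlations -0.64 to -0.36), and that number as a block gave 15, 2 and 14 members for MPH at 0, 1 and 2 h. Over all 10239 genes it gave 530 higher and 361 lower at 0 h, 138 and 23 at 1 h, and 459 and 344 at 2 h. Leaving out 1 culture at a time gave 11 to 40 (DMSO, 1 h), 1 to 3 (MPH, 1 h), 19 to 47 (MPH, 2 h), and for MPH against DMSO 0 to 1 at each time. Without the 1 h library labelled M4 the counts for MPH were 1 at 1 h and 3 at 2 h, and LPS under MPH at 1 h gave 22 with the culture block, an alternative chosen after seeing the data. No filter gave 20 (DMSO, 1 h), 1 (MPH, 1 h) and 0 (MPH against DMSO, 0 h). Median-of-ratios scaling gave 18 and 70 for DMSO at 1 and 2 h, and shifted the median of all genes at 2 h from -0.25 to about 0. D3 to D6 alone gave 4 and 52 (fewer samples), and leaving out the shallow 1 h libraries 11 at 1 h. All 7 DMSO cultures gave 3 and 7 for MPH at 0 and 2 h. The cause of these shifts was not tested. Slc2a6 under MPH turned from -0.18 to 0.74 (0 h) and from -0.24 to 0.67 (2 h) with the number block, and Slc11a1 and Slc29a1 at 2 h of LPS from -0.15 to 0.11 on rescaling. Depth, as low as 5.38 M reads, limits members near 1 RPKM most.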

Other observations

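Deviations from the group means over genes were correlated between DMSO and MPH cultures whose numbers differ: across the 3 times the coefficients were 0.85 to 0.88 for D3 with M2, 0.76 to 0.90 for D4 with M3 and 0.74 to 0.90 for D5 with M4. For the same-numbered D3 with M3 and D4 with M4 they were -0.64 to -0.36. These are descriptions across genes, and nothing in the labels ties these cultures together.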
